A study of Mus musculus with 8 samples.

Results

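Pericytes and vascular smooth muscle cells, together called mural cells, wrap the outside of blood vessels. Pericytes sit on brain capillaries, where they take part in forming the blood-brain barrier, and smooth muscle cells ring the arteries and set vessel width by contracting. Endothelial cells release PDGF-B, which draws mural cells to the vessel through the receptor PDGFRβ, and smooth muscle cells are told apart from pericytes by a contractile apparatus of smooth muscle actin, myosin and their binding proteins. Expression of 7 genes that mark these cells was examined here in mouse medulloblastoma, a tumour of the cerebellum. They are Pdgfrb, Rgs5, Vtn and Abcc9, used as pericyte markers, and Acta2, Tagln and Myh11, which belong to the contractile apparatus. They were chosen by name, each read by the probe set naming that gene alone and, for Rgs5, which has 2, by the one with the highest mean. All 7 were measured and all 7 passed the filter on dim genes, of 22180 genes measured and 15526 tested.

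The series compared tumours of the genotype Math1-Cre/SmoM2/Bcl2l1 f/f, called Bcl2l1-deleted here (4 arrays), with tumours of the genotype Math1-Cre/SmoM2, the controls (4 arrays), all harvested at postnatal day 15 from animals given no exogenous agent. Every animal carried Math1-Cre and SmoM2: Cre made from the Math1 (Atoh1) promoter, active in granule neuron precursors, switches on SmoM2, an active form of Smoothened, and in the first group also deletes floxed Bcl2l1, which encodes BCL-xL, a protein that holds back apoptosis. Math1 is a gene of neural precursors and is not known as a marker of mural cells. Another field of the labels calls Bcl2l1 deleted on all 8 samples, the controls included, and was not used. Bcl2l1 itself averaged 5.48 ± 0.15 in Bcl2l1-deleted tumours and 6.84 ± 0.19 in controls (log2 RMA value, SD, n = 4 each; adjusted p = 0.00509, limma), with no overlap; which part of the gene the probes cover was not examined here. Each value comes from whole tumour RNA on 1 Affymetrix array, so a difference in the number of mural cells and a difference in RNA per mural cell cannot be told apart. Each array is a separate animal, and p-values measure the spread between these animals. All 12 genes of a list of granule progenitor and Sonic hedgehog tumour markers, Atoh1 and Gli1 among them, were above the dim limit in these tumours. Of the 12, 0 passed the test between genotypes (limma), against 6.52% of all genes tested, and 1 had an unadjusted p under 0.05.

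The arrays differed in background and range. The median of 1394 olfactory and vomeronasal receptor genes, which report mostly background in brain, lay between 2.79 and 2.92 on the Bcl2l1-deleted arrays, at 3.60 on control replicate 2 and between 2.94 and 3.09 on the other controls. The interquartile range of all genes was 3.59 to 3.66 on the Bcl2l1-deleted arrays, 2.40 on control replicate 2 and 3.29 to 3.50 on the other controls. Control replicate 2 thus stood apart, and its values are given with each gene below, together with the result without it. Over all genes tested, the median fitted difference was 0.17 (log2, Bcl2l1-deleted minus control), and a relative change below is the fitted log2 change, Bcl2l1-deleted minus control, less that shift. Its SE and adjusted p are those of the fitted change.

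Of the 7 genes, Rgs5, Vtn and Acta2 rose in the Bcl2l1-deleted tumours, none fell, and Pdgfrb, Abcc9, Tagln and Myh11 did not pass an adjusted p of 0.05 (limma, Benjamini-Hochberg over all genes tested). Over all genes tested, 6.52% passed, 4.93% as higher and 1.60% as lower. At an unadjusted p under 0.05 the count was 4 of 7, all higher, against 30.5% of all genes (23.1% higher and 7.32% lower). The groups did not overlap for 4 of the 7, these 3 and Pdgfrb, each time with every Bcl2l1-deleted array above every control array, as for 19.0% of all genes tested (23.4% in either direction, 4.46% with the Bcl2l1-deleted arrays below). The median relative change of the 7 was 0.53, where that of all genes tested is 0 by construction. Without control replicate 2, Pdgfrb passed as well and 4 of the 7 were higher, against 8.95% of all genes called higher and 13.5% called in either direction. For the 3 genes whose groups overlapped, Abcc9, Tagln and Myh11, the exact permutation test over the arrays gave p = 0.543, 0.229 and 0.8286, two-sided. The mean of the 7 genes, each centred on its own mean, was between 0.20 and 0.42 on the Bcl2l1-deleted arrays, -0.70 on control replicate 2 and between -0.23 and -0.11 on the other controls.

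**Figure D1:**
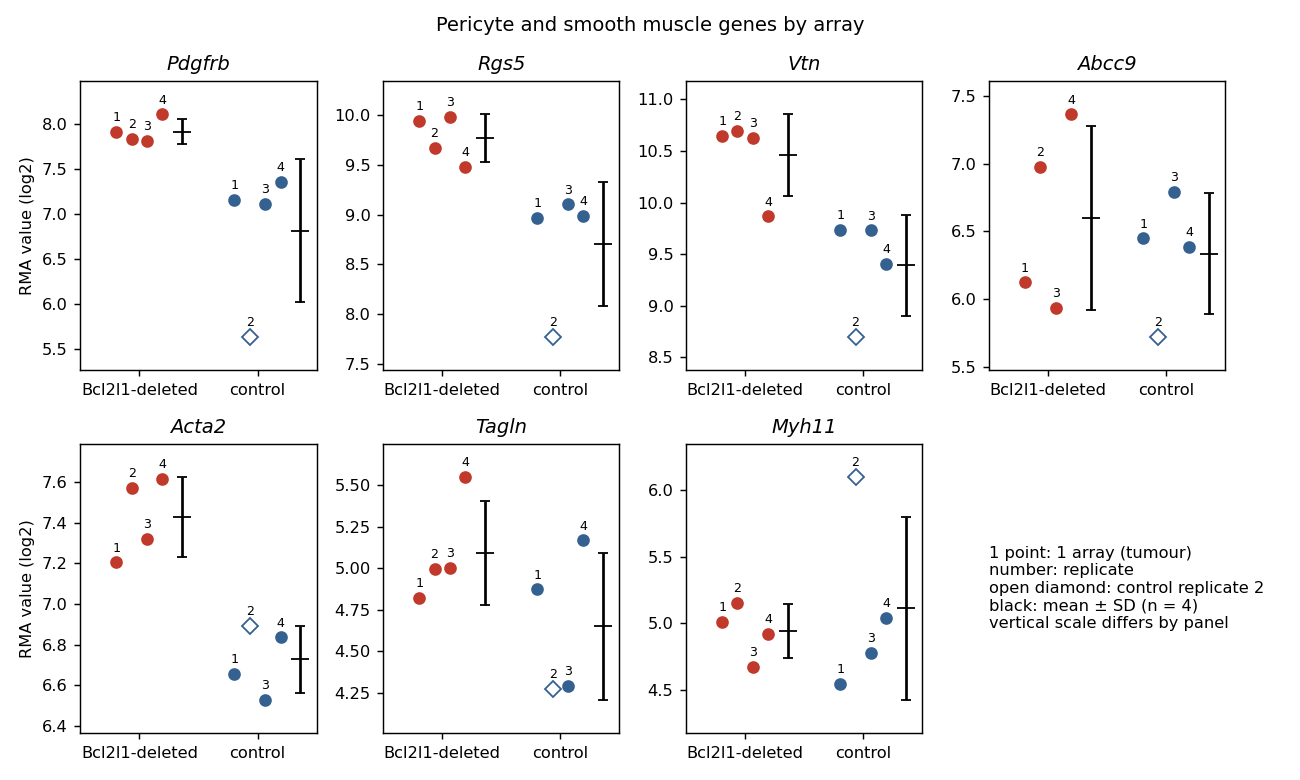
Log2 RMA value of each of the 7 genes on each array, Bcl2l1-deleted left and control right, with 1 point per tumour numbered by replicate, an open diamond for control replicate 2, and the mean ± SD (n = 4) in black; the vertical scale differs by panel. The groups are apart for Pdgfrb, Rgs5, Vtn and Acta2 and overlap for Abcc9, Tagln and Myh11, and control replicate 2 is the lowest point of Pdgfrb, Rgs5, Vtn, Abcc9 and Tagln and the highest of Myh11.

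Pdgfrb encodes the receptor through which PDGF-B recruits pericytes. Its log2 values were 7.91, 7.83, 7.81 and 8.10 in Bcl2l1-deleted tumours 1 to 4, against 7.15, 5.63, 7.11 and 7.35 in controls 1 to 4. The Bcl2l1-deleted arrays lay within a narrow band above all controls, and control replicate 2 was far below the other controls. The mean was 7.91 ± 0.13 in Bcl2l1-deleted tumours and 6.81 ± 0.79 in controls (SD, n = 4 each), a relative change of 0.93 (SE 0.32, adjusted p = 0.0636, limma). The exact permutation test over the arrays gave p = 0.0286, two-sided, the smallest value that 4 against 4 allows, as it did for Rgs5, Vtn and Acta2. Without control replicate 2 the control mean was 7.20 ± 0.13 (SD, n = 3), the relative change was 0.62 and the adjusted p 0.0117, a smaller difference with a smaller error. With arrays centred on their median over all probe sets, Pdgfrb passed with all 8 arrays (0.0465). Of the 20 alternative settings it passed in 4 and not in 16. It did not pass when any Bcl2l1-deleted array, 1 to 4, was omitted (adjusted p = 0.160, 0.145, 0.107 and 0.143, limma) or with quantile normalization (0.0850). With those arrays omitted singly the relative change of Pdgfrb was 0.92, 0.96, 0.96 and 0.87, each with an unadjusted p under 0.05 (limma).

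Rgs5 encodes a regulator that speeds up GTP hydrolysis by G-protein α subunits and is among the most used markers of pericytes. It stood at 9.94, 9.67, 9.98 and 9.48 in Bcl2l1-deleted tumours 1 to 4, against 8.96, 7.77, 9.10 and 8.99 in controls 1 to 4. All Bcl2l1-deleted values were above all controls, and replicate 2 was again the lowest control. The means were 9.77 ± 0.24 in Bcl2l1-deleted tumours and 8.71 ± 0.63 in controls (SD, n = 4 each), 2.09-fold higher as fitted (relative change 0.89, SE 0.28, adjusted p = 0.0478, limma). A second probe set of Rgs5 averaged 6.95 in Bcl2l1-deleted tumours and 6.07 in controls, a difference of 0.88, but there control replicate 3, at 6.79, was above Bcl2l1-deleted replicate 4, at 6.71. With both probe sets averaged the adjusted p was 0.0563. Leaving out control replicate 2 gave a relative change of 0.67 and an adjusted p of 0.0145. Omitting each of the Bcl2l1-deleted arrays 1 to 4 ended the call (adjusted p = 0.144, 0.123, 0.101 and 0.0818), as did omitting control array 3 or 4 (0.0573 and 0.0900). With Bcl2l1-deleted arrays 1 to 4 omitted singly the relative change of Rgs5 was 0.83, 0.93, 0.82 and 0.99, each with an unadjusted p under 0.05 (limma). Rgs5 passed in 9 of the 20 alternative settings and not in 11.

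Vtn encodes vitronectin, an adhesive glycoprotein of plasma and extracellular matrix which in brain is made largely by pericytes and binds αv integrins. Its values were 10.65, 10.69, 10.63 and 9.87 in Bcl2l1-deleted tumours 1 to 4, against 9.74, 8.70, 9.73 and 9.40 in controls 1 to 4. The groups did not overlap, but Bcl2l1-deleted replicate 4 stood well below the other arrays of its group and close to the highest controls. Vtn averaged 10.46 ± 0.40 in Bcl2l1-deleted tumours and 9.39 ± 0.49 in controls (SD, n = 4 each), 2.09-fold higher as fitted (relative change 0.89, SE 0.27, adjusted p = 0.0416, limma). Without control replicate 2 the relative change was 0.75 (adjusted p = 0.0322). Vtn no longer passed when Bcl2l1-deleted array 1, 2 or 3 was omitted (adjusted p = 0.133, 0.129 and 0.0899) or control array 3 or 4 (0.0560 and 0.0978). With Bcl2l1-deleted array 1, 2 or 3 omitted its relative change was 0.82, 0.82 and 0.83, each with an unadjusted p under 0.05 (limma). Vtn passed in 11 of the 20 alternative settings and not in 9.

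Abcc9 encodes SUR2, the regulatory subunit that joins the pore protein Kir6.1, product of Kcnj8, in the ATP-sensitive potassium channel of mural cells. It read 6.12, 6.98, 5.94 and 7.36 in Bcl2l1-deleted tumours 1 to 4, against 6.45, 5.72, 6.79 and 6.38 in controls 1 to 4. The Bcl2l1-deleted arrays held both the highest values and values below 3 of the controls, so the groups were mixed. The relative change was 0.09 (SE 0.33, adjusted p = 0.591), with a 95% interval of the fitted change from -0.46 to 0.99, which takes in the fitted change of Acta2, 0.70. With control replicate 2 left out the relative change of Abcc9 was -0.02 (adjusted p = 0.913). Kcnj8 averaged 6.66 ± 0.50 in Bcl2l1-deleted tumours and 6.27 ± 0.75 in controls (SD, n = 4 each) and did not pass either (relative change 0.22, adjusted p = 0.456). Of the channel genes of neurons and endocrine cells, Kcnj11, which encodes Kir6.2, fell by 0.81 relative to the median gene (SE 0.16, adjusted p = 0.0442). All its Bcl2l1-deleted arrays were below all controls. Abcc8, which encodes SUR1, had a relative change of -1.19 without passing (SE 0.30, adjusted p = 0.0655).

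Acta2 encodes smooth muscle α-actin, the actin of the contractile filaments, present in arterial smooth muscle and in some pericytes. It read 7.20, 7.57, 7.32 and 7.61 in Bcl2l1-deleted tumours 1 to 4, against 6.66, 6.89, 6.53 and 6.84 in controls 1 to 4. The groups were apart, and here control replicate 2 was the highest control and not the lowest. Acta2 averaged 7.43 ± 0.20 in Bcl2l1-deleted tumours and 6.73 ± 0.17 in controls (SD, n = 4 each), 1.62-fold higher as fitted (relative change 0.53, SE 0.16, adjusted p = 0.0337, limma). Without control replicate 2 the relative change was 0.67 (adjusted p = 0.0138). No call was made when any Bcl2l1-deleted array, 1 to 4, was omitted (adjusted p = 0.0876, 0.117, 0.0609 and 0.0897), when control array 3 or 4 was omitted (0.0653 and 0.0758), with quantile normalization (0.0746) or with arrays centred on the tested genes (0.176). With Bcl2l1-deleted arrays 1 to 4 omitted singly the relative change of Acta2 was 0.59, 0.48, 0.56 and 0.46, each with an unadjusted p under 0.05 (limma). Acta2 passed in 9 of the 20 alternative settings and not in 11. The actins are close relatives, and whether a probe set of one picks up RNA of another was not examined. Among its relatives, the heart actin gene Actc1 had a relative change of 0.44 (adjusted p = 0.137), the skeletal actin gene Acta1 one of -0.26 (adjusted p = 0.727), the cytoplasmic actin genes Actb and Actg1 ones of -0.13 and -0.07 (adjusted p = 0.859 and 0.615), and the enteric smooth muscle actin gene Actg2 lay below the dim limit.

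Tagln encodes transgelin (SM22α), an actin-binding protein of smooth muscle. It read 4.82, 4.995, 5.002 and 5.55 in Bcl2l1-deleted tumours 1 to 4, against 4.87, 4.27, 4.29 and 5.17 in controls 1 to 4. The highest array of each group was replicate 4, and 2 of the controls reached into the Bcl2l1-deleted range. The relative change was 0.27 (SE 0.24, adjusted p = 0.228), with a 95% interval of the fitted change from -0.08 to 0.96. Omitting control replicate 2 gave Tagln a relative change of 0.23 (adjusted p = 0.369).

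Myh11 encodes the smooth muscle myosin heavy chain, the motor that acts on Acta2 filaments and the marker most confined to smooth muscle. It read 5.01, 5.15, 4.67 and 4.92 in Bcl2l1-deleted tumours 1 to 4, against 4.54, 6.10, 4.78 and 5.04 in controls 1 to 4. Control replicate 2 was more than a whole log2 unit above the next control, while of the other controls 2 lay within the Bcl2l1-deleted range and 1 below it. The relative change was -0.35 (SE 0.29, adjusted p = 0.699), and without control replicate 2 it was 0.07 (adjusted p = 0.528). Tagln and Myh11 were also the dimmest of the 7, with means of 4.87 and 5.03 over the 8 arrays where the dim limit was 4.38.

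**Figure D2:**
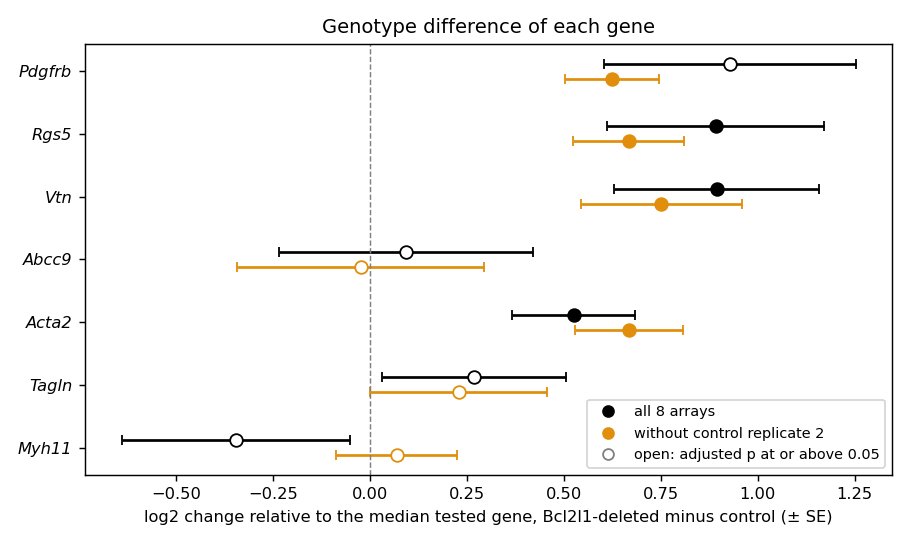
Log2 change of each gene relative to the median tested gene (horizontal axis, Bcl2l1-deleted minus control, ± SE) with all 8 arrays in black and without control replicate 2 in orange; filled points have an adjusted p under 0.05. Pdgfrb, Rgs5 and Vtn move closer to 0 without that array, from 0.93, 0.89 and 0.89 with all arrays to 0.62, 0.67 and 0.75, while Acta2 is at 0.53 with it and 0.67 without it, and Abcc9 and Myh11 cross 0, neither passing with or without that array.

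The arrays did not rank alike for the 7 genes. Bcl2l1-deleted replicate 4 was the highest of all 8 arrays for 4 genes, Pdgfrb, Abcc9, Acta2 and Tagln, but the lowest of its group for Rgs5 and Vtn. Control replicate 2 was the lowest of all arrays for 5 genes and the highest for Myh11.

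The sequence before the start of the 3 genes that rose was read to show what these promoters hold, since the contractile genes are known targets of serum response factor, which binds the CArG box. The 250 bases before the annotated start are given 5′ to 3′ on the strand of the gene (RefSeq, GRCm38.p6), with matches to the motifs named next in capitals: Acta2 at chr19:34255374-34255623 (minus strand), Rgs5 at chr1:169655251-169655500 (plus strand) and Vtn at chr11:78498870-78499119 (plus strand).
Acta2: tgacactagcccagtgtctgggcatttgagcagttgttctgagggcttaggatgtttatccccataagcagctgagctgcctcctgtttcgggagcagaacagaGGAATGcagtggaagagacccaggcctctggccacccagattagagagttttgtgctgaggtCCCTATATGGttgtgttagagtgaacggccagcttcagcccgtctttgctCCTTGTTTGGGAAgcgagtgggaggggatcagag
Rgs5: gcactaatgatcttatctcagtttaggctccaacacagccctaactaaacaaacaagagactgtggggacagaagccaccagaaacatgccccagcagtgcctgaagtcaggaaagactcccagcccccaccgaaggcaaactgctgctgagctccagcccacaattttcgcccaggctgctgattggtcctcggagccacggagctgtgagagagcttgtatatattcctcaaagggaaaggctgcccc
Vtn: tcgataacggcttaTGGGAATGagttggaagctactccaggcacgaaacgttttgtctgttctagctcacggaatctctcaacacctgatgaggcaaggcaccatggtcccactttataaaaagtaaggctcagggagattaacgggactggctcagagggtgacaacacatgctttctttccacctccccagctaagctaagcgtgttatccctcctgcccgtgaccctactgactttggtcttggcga
Searched on both strands were the CArG box (CC, then 6 bases of A or T, then GG), the same box with 1 of the 6 being G or C, the M-CAT motif CATTCC and the RBPJ core TGGGAA. No strict CArG box stood in any of the 3 windows, where 1.47% of 32851 RefSeq promoter windows of this length hold one. The Acta2 window held 2 of the relaxed boxes, CCCTATATGG starting 84 bases and CCTTGTTTGG starting 34 bases before the start, a form that 7.24% of the windows hold. It also held 1 M-CAT match 146 bases and 1 TGGGAA match 27 bases before the start, the last overlapping the nearer box. The Vtn window held overlapping matches to TGGGAA and M-CAT, beginning 236 and 234 bases before the start, and the Rgs5 window none of the 4. The window of Abcc9, which did not pass, held the same overlapping pair, beginning 221 and 219 bases before its start. The windows of Pdgfrb, Tagln and Myh11, which did not pass either, were not read, so promoters of passing and other members are not compared here. M-CAT was present in 12.6% and TGGGAA in 21.6% of all windows. These are matches of letters and not measured binding.

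Other markers of pericytes were examined as a list, chosen like the other lists with results of these data known. Of 23 listed genes 21 were tested, of which 7 rose, 0 fell and 14 did not pass, and the median relative change was 0.35. The share that passed was 33.3%, against 6.52% of all genes. The 7 were the transcription factor genes Foxc1 and Foxf2, which act in brain pericyte development, the UDP-sugar receptor gene P2ry14, the aminopeptidase gene Anpep (CD13), the transport ATPase gene Atp13a5, the oestrogen-responsive receptor gene Gper1 and the ADP-ribosyltransferase gene Art3. P2ry14 averaged 7.44 ± 0.39 in Bcl2l1-deleted tumours and 5.96 ± 0.57 in controls (SD, n = 4 each), a relative change of 1.30 (adjusted p = 0.0218), and Foxc1 6.17 ± 0.23 in Bcl2l1-deleted tumours and 5.004 ± 0.431 in controls, a relative change of 0.99 (adjusted p = 0.0211). The relative changes of Foxf2, Atp13a5, Anpep, Art3 and Gper1 were 1.20, 1.12, 0.80, 0.71 and 0.66 (adjusted p = 0.0291, 0.0360, 0.0309, 0.0385 and 0.0379). The groups overlapped for Foxf2 and not for the other 6. Other widely used markers did not pass, Cspg4 (NG2) at -0.19, Notch3 at -0.04 and Mcam at 0.10 (adjusted p = 0.963, 0.569 and 0.331). Omitting Bcl2l1-deleted arrays 1 to 4 singly left 0, 0, 4 and 2 calls, and omitting control arrays 1 to 4 singly left 8, 9, 3 and 1 (limma; 10 to 13 at an unadjusted p under 0.05 in these fits).

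Of 22 listed genes of the smooth muscle contractile apparatus 20 were tested, of which 1 rose, 0 fell and 19 did not pass, 5% against 6.52% of all genes, with a median relative change of 0.11. The gene that rose was Myl9, the regulatory light chain that is phosphorylated to start contraction, at 7.03 ± 0.11 in Bcl2l1-deleted tumours and 6.26 ± 0.18 in controls (SD, n = 4 each; relative change 0.60, adjusted p = 0.0216). Next by p were Smtn, Itga8 and Tpm1, with relative changes of 0.35, 0.55 and 0.46 (adjusted p = 0.0561, 0.0617 and 0.0735), each with groups that did not overlap. Cnn1 and Des, coding for calponin and desmin, stood at -0.13 and 0.16 (adjusted p = 0.923 and 0.205), and Ppp1r14a at -0.75 (adjusted p = 0.127). Without control replicate 2, 5 of the 20 passed, 4 of them higher and 1 lower, and with arrays also centred on the tested genes 2 passed. With Bcl2l1-deleted arrays 1 to 4 omitted singly it was 0, 0, 1 and 0, and with control arrays 1, 3 and 4 omitted singly 1, 1 and 0 (limma; 5 to 8 at an unadjusted p under 0.05). Of 8 tested transcription regulators of smooth muscle, Hey2, a Notch effector, rose (relative change 0.46, adjusted p = 0.0478), and the other 7 did not pass, among them Srf and Mef2c (0.27 and 0.47, adjusted p = 0.1999 and 0.126) and Myocd, the coactivator that drives contractile genes (-0.58, adjusted p = 0.225). That 1 call made 12.5% of the 8, against 6.52% of all genes. Hey2 kept its call without control replicate 1 or 2 and lost it without any one of the other 6 arrays.

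**Figure D3:**
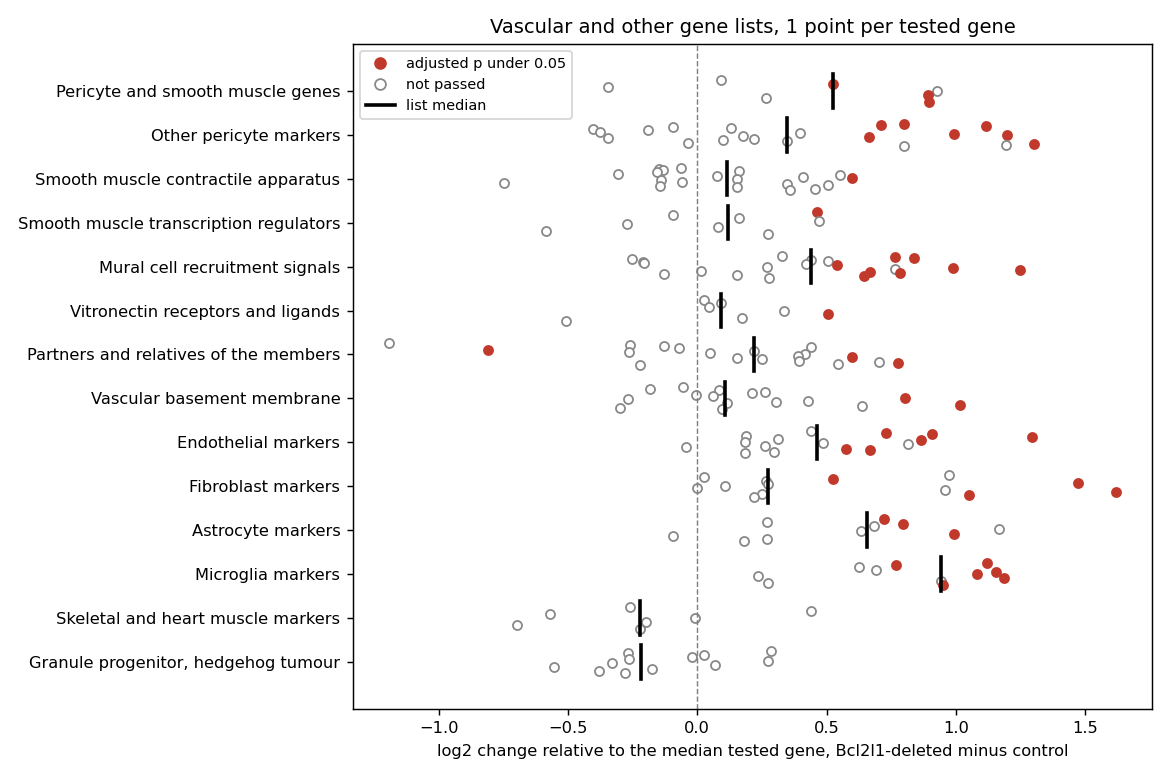
Log2 change of each tested gene relative to the median tested gene (horizontal axis, Bcl2l1-deleted minus control) for the 7 genes and 13 other lists down the page, with red points for an adjusted p under 0.05, open points for genes that did not pass and a black bar at each list's median. The medians are 0.53 for the 7 genes, 0.35 for the other pericyte markers, 0.11 for the contractile apparatus and 0.44 for the recruitment signals, and no gene of the skeletal and heart muscle or granule progenitor lists is red.

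Signals that recruit mural cells and settle them on the vessel rose in part. Of 22 listed genes 21 were tested, of which 8 rose, 0 fell and 13 did not pass, with a median relative change of 0.44. The share that passed was 38.1%, against 6.52% of all genes. Among the ligands, Pdgfb averaged 7.19 ± 0.13 in Bcl2l1-deleted tumours and 6.48 ± 0.25 in controls (SD, n = 4 each; relative change 0.54, adjusted p = 0.0347). Angpt2, an antagonist or partial agonist of the receptor TIE2, averaged 6.16 ± 0.14 in Bcl2l1-deleted tumours and 5.15 ± 0.24 in controls (relative change 0.84, adjusted p = 0.0140), and Angpt1, the agonist that mural cells supply, had a relative change of 0.77 (adjusted p = 0.0484). Pdgfd, a further ligand of PDGFRβ, and Tgfb1 changed by 0.99 and 0.78 relative to the median gene (adjusted p = 0.0491 and 0.0430). The groups overlapped for Pdgfd, with control replicate 1 at 7.25 and Bcl2l1-deleted replicate 4 at 7.19, and did not for Tgfb1. Among the receptors, the sphingosine phosphate receptor gene S1pr3 averaged 8.74 ± 0.11 in Bcl2l1-deleted tumours and 7.32 ± 0.70 in controls (relative change 1.25, adjusted p = 0.0247), and Tek (TIE2) and Tgfbr2 rose by 0.67 and 0.64 (adjusted p = 0.0363 and 0.0474). Pdgfa and Pdgfc did not pass (0.42 and 0.27, adjusted p = 0.0843 and 0.138), nor did the Notch ligand gene Jag1 (-0.21, adjusted p = 0.928). Single omission of Bcl2l1-deleted arrays 1 to 4 left 0, 0, 1 and 1 calls and of control arrays 1 to 4 left 11, 7, 4 and 1 (limma; 10 to 14 at an unadjusted p under 0.05), and centring on the tested genes left 3.

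Of 7 tested receptor and ligand genes of vitronectin 1 passed, 14.3% against 6.52% of all genes: Plau, the urokinase gene, rose (relative change 0.50, adjusted p = 0.0415). The other 6 did not pass, among them the integrin genes Itgb5, Itgb3 and Itgav (0.33, 0.04 and 0.03, adjusted p = 0.0888, 0.371 and 0.532) and Plaur, whose product, the urokinase receptor, binds vitronectin (0.17, adjusted p = 0.155). The call of Plau was lost without any one array other than control replicate 2. Among the partners and closest relatives of the 7 genes, 2 of 19 rose and 1, Kcnj11, fell, 15.8% against 6.52% of all genes. The 2 were Myl9, counted above, and Rgs4, a relative of Rgs5 (relative change 0.78, adjusted p = 0.0478), for which the groups overlapped. Tagln2, Rgs16 and Myh9 stood at 0.54, 0.39 and 0.42 (adjusted p = 0.0717, 0.0718 and 0.122) and Myh10 and Tagln3 at -0.27 and -0.22 (adjusted p = 0.716 and 0.858). For these relatives the calls numbered 0, 0, 1 and 0 with Bcl2l1-deleted arrays 1 to 4 omitted singly and 5, 3, 1 and 0 with control arrays 1 to 4 omitted singly (limma; 8 to 10 at an unadjusted p under 0.05).

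The vascular basement membrane is shared by mural and endothelial cells. Of its 16 genes, all tested, 2 rose, 0 fell and 14 did not pass, with a median relative change of 0.11. The share that passed was 12.5%, against 6.52% of all genes. Nid1 (nidogen 1) averaged 10.12 ± 0.08 in Bcl2l1-deleted tumours and 8.94 ± 0.22 in controls (SD, n = 4 each; relative change 1.02, adjusted p = 0.00856), and the laminin chain gene Lama4 7.10 ± 0.31 in Bcl2l1-deleted tumours and 6.12 ± 0.49 in controls (relative change 0.80, adjusted p = 0.0449). Nid2 and Lamb1 had relative changes of 0.64 and 0.43 with no overlap of the groups (adjusted p = 0.0560 and 0.0630). The collagen IV genes Col4a1 and Col4a2 stood at 0.08 and 0.26 (adjusted p = 0.405 and 0.160). The count was 1 without any one Bcl2l1-deleted array and without control replicate 3 or 4, and 3 without control replicate 1 or 2.

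Some markers of other cells of the vessel wall and of glia also rose. Endothelial markers rose in 6 of 16 tested genes (Cdh5, Esam, Cldn5, Emcn, Tek and Slco1c1, relative changes 0.58 to 1.29), and their summed level, as log2 of the summed linear values, was 11.61 to 11.77 on the Bcl2l1-deleted arrays and 10.76 to 11.58 on the controls. Fibroblast markers, some of which perivascular cells share, rose in 4 of 13 tested genes (Ogn, Dcn, Slc6a13 and Col1a2, relative changes 0.53 to 1.62), with a summed level of 11.72 to 12.05 on the Bcl2l1-deleted arrays and 10.78 to 11.44 on the controls. The largest of these changes, that of Ogn, rests on a control mean of 4.36, under the dim limit of 4.38. Ogn passed the dim filter only through its Bcl2l1-deleted values (mean 6.15), so its call is weak evidence. Astrocyte markers rose in 3 of 10 (Aldh1l1, S100b and Aqp4), with a summed level of 13.29 to 13.72 on the Bcl2l1-deleted arrays and 12.34 to 13.41 on the controls. Microglia markers rose in 6 of 11 (Aif1, Ctss, C1qa, Ly86, Csf1r and Trem2), with 11.96 to 12.18 on the Bcl2l1-deleted arrays and 10.63 to 11.65 on the controls. Of the tested genes, 37.5% of endothelial, 30.8% of fibroblast, 30% of astrocyte and 54.5% of microglia markers passed, against 6.52% of all genes. Among the genes of these lists that rose, the groups overlapped for Slc6a13 and S100b. In none of the 4 lists did a gene fall, and 1 listed gene, the endothelial marker Ly6c1, lay below the dim limit. The part that these cells, or the background and range of the arrays, had in the values of the 7 genes was not tested. All 4 Bcl2l1-deleted arrays had a lower receptor median than the 4 controls, so a fit with it as a covariate takes out part of the genotype difference by construction, and background and genotype cannot be told apart in it. In that fit 4.36% of all genes tested passed and 1 of the 7, Acta2 (adjusted p = 0.0273), where Pdgfrb, Rgs5 and Vtn had relative changes of 0.40, 0.45 and 0.56 (adjusted p = 0.288, 0.148 and 0.158). Of the lists, 1 of the other pericyte markers passed in it, 2 of the recruitment signals, 2 of the contractile genes, 3 endothelial, 2 fibroblast, 2 microglia and 0 astrocyte markers (limma; 3 astrocyte markers had an unadjusted p under 0.05). With each array omitted singly, calls ranged from 0 to 8 for endothelial, 1 to 5 for fibroblast, 0 to 7 for astrocyte and 0 to 9 for microglia markers. The lowest count of each list was reached without Bcl2l1-deleted replicate 1 and equally without Bcl2l1-deleted replicate 2. For astrocyte markers it was also reached without several other arrays. At an unadjusted p under 0.05 the counts were at least 11, 6, 5 and 9 (limma).

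**Figure D4:**
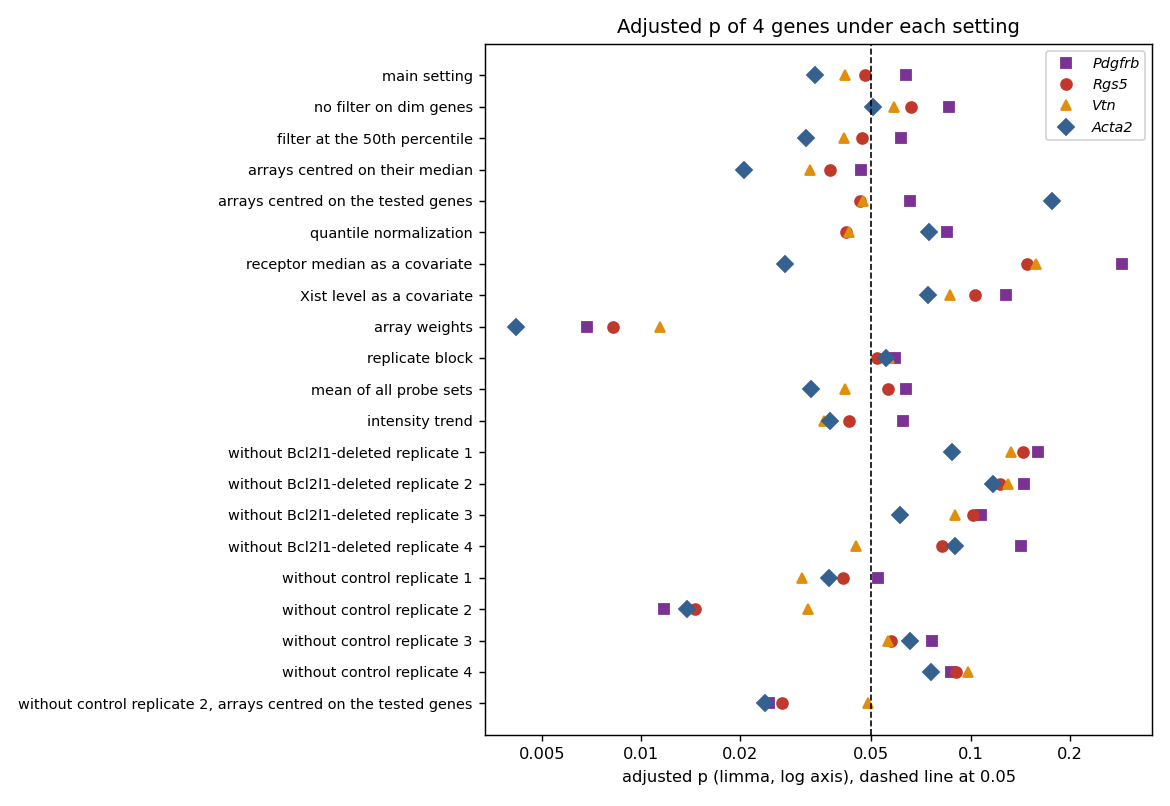
Adjusted p (horizontal log axis, dashed line at 0.05) of Pdgfrb, Rgs5, Vtn and Acta2 with the main setting and under 20 alternatives down the page. With the main setting Pdgfrb is right of the line at 0.0636 and the other 3 left of it, without control replicate 2 all 4 are left of it, and without any one Bcl2l1-deleted array only Vtn, without replicate 4, is left of it.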

How the data were processed

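RNA of 8 tumours was hybridised to Affymetrix whole-transcript arrays, 4 per genotype. The deposited values are log2 RMA values from the gene expression workflow of Partek, per the labels. RMA as a method subtracts background, quantile-normalizes and combines probes by median polish. The deposited arrays do not share a distribution (medians of all probe sets 4.77 to 5.17), so that quantile step was not borne out for these values. For the Partek version, its options and the genome build, the sources used here give nothing. Groups came from the titles, and the design text names separate animals.

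Of 41345 probe sets, 23521 had a single symbol in the platform annotation, 1814 several and 16010 none. The probe set with the highest mean was kept per gene, giving 22180 genes, and 6654 with a mean no higher than 4.38, the 30th percentile, were left out as dim. In R 4.3.3, limma 3.58.1 fitted the other 15526 by lmFit and eBayes without covariates, p-values being two-sided and adjusted over all 15526 by Benjamini-Hochberg, and every adjusted p is from that fit unless a setting is named. In a simulated comparison of 15526 genes between the genotypes, the fit found 94.0% of the 100 genes given a log2 change of 2 and 50.0% of the 100 given a change of 1, with 9 false calls. The simulated noise was independent for each gene, with no array standing apart as control replicate 2 did. Its shares and false calls are thus no measure of the error rate in these data. The number of arrays limits the precision.

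The members and lists were chosen with earlier results of these data known. Named were the 7 members, Bcl2l1, every list gene that passed and up to 4 genes of smallest p per list, genes most like each member, neighbouring genes, and further list genes named by role after their values were seen. Lists share genes (Myl9, Mylk, Kcnj8, Actg2, Tek, Pdgfra, Acta1 and Actc1). Alternatives were other dim filters, scalings, covariates, array weights, a replicate block, the mean of all probe sets, an intensity trend and leaving out each array, and, chosen after seeing the data, leaving out control replicate 2 with arrays centred on the tested genes.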

Additional observations from a re-analysis of the deposited data

Results flagged for a closer look

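Of 166 groups of 4 arrays checked (named genes and list means in either genotype; chance sets about 1 in 20 apart), 10 had an array far from the other 3, and in 6 of these it was control replicate 2 at the low end. Pdgfrb was 5.63 there against 7.11 to 7.35 on the other controls, and Rgs5 was 7.77 against 8.96 to 9.10. S1pr3 was 6.29 against 7.58 to 7.80, and Nid2 was 5.32 against 6.15 to 6.27. The mean of the contractile apparatus list, each gene centred on its own mean, was -0.28 there against -0.09 to -0.07, and that of the smooth muscle transcription regulators -0.53 against 0.00 to 0.05. Elsewhere, Vtn in Bcl2l1-deleted replicate 4 was 9.87, and 10.63 to 10.69 in the others of its group. Pdgfb was 6.85 on control replicate 3 against 6.32 to 6.39 on the other controls. Kcnj11 was 5.74 and Zic1 11.01 on Bcl2l1-deleted replicate 2, against 5.34 to 5.37 and 11.21 on the others of that group.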

How the results depend on the processing

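Of the 44 named genes past the threshold, all kept their direction in the 20 alternatives wherever they had a value, and 3 to 44 kept the call. Across leaving out each array in turn, genes past the threshold numbered 20 to 2100 (main count 1013), and members 0 to 4 (limma; 4 or 5 of the 7 had an unadjusted p under 0.05 each time). Genes numbered 548 with no dim filter, 200 with the Xist level as a covariate, 3494 with array weights and 1793 without control replicate 2 on centred arrays. Members numbered 0 with no dim filter and with the Xist covariate (limma; 4 at an unadjusted p under 0.05 in each) and 1 with the receptor covariate. The members' median relative change was 0.81 with the dim filter at the 50th percentile, where Tagln and Myh11 were no longer tested. Same-numbered replicates did not deviate together (correlations 0.04, 0.02, -0.13 and 0.05 for numbers 1 to 4), so the numbers were not taken as pairs; with them as a replicate block 508 genes and 0 members passed (limma; 5 members at an unadjusted p under 0.05). Fitted changes turned sign for Abcc9 with the receptor covariate (-0.0490) and without control replicate 2 on centred arrays (-0.0718), and for Myh11 with the receptor covariate (0.48), array weights (0.15), without control replicate 2 (0.154; -0.365 to 0.154 over leaving out each array) and also centred (0.0215). They did so for Myod1 centred on the tested genes (-0.0933), with the receptor covariate (-0.0224) and without control replicate 2 on centred arrays (-0.0490), and for Mycn centred on the tested genes (-0.0172). None of these 4 genes passed in any setting. The cause was not tested.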

Other observations

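Of 14 genes of skeletal and heart muscle, 7 lay at or below the dim limit, among them the myosin genes Myh1, Myh2, Myh4 and Myh6. Of the 7 tested, 0 passed (limma), against 6.52% of all genes, and 2 had an unadjusted p under 0.05. The 4 with the smallest p were Actc1, Tnnt2, Myh7 and Myod1, with relative changes of 0.44, -0.70, -0.57 and -0.01 (adjusted p = 0.137, 0.157, 0.175 and 0.488). Myod1, the regulator of skeletal muscle fate, was well above the dim limit, at 9.56 ± 0.19 in Bcl2l1-deleted tumours and 9.39 ± 0.19 in controls (SD, n = 4 each).

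The genes next to the 7 on the chromosome were taken by position from the gene order of RefSeq (GRCm38.p6) after the members' values were seen. They numbered 14, of which 12 were tested, 4 were higher and 1 lower. Over all genes tested, 4.93% were higher and 1.60% lower. A tie between neighbours was not tested. Csf1r, the neighbour of Pdgfrb and a microglia marker, averaged 8.88 ± 0.24 in Bcl2l1-deleted tumours and 7.55 ± 0.75 in controls (SD, n = 4 each; relative change 1.15, adjusted p = 0.0384). Both neighbours of Rgs5 rose, Rgs4 by 0.78 and Nuf2, a kinetochore gene, by 0.62 (adjusted p = 0.0478 and 0.0414). Nde1, next to Myh11, rose by 0.74 (adjusted p = 0.0382) where Myh11 did not. Sebox, next to Vtn, fell by 0.85 relative to the median gene (adjusted p = 0.0484) where Vtn rose. Its mean in Bcl2l1-deleted tumours, 4.18, was under the dim limit of 4.38, and Sebox passed the dim filter only through the controls (mean 4.85). Kcnj8, the neighbour of Abcc9 as well as its channel partner, did not pass, and Fas, next to Acta2, lay below the dim limit.

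The genes whose deviations from the group means were most like those of a member over the 8 arrays were Ccdc181, Tmem132d and Anapc1 for Pdgfrb, Nr4a2, Gpsm3 and Mgl2 for Rgs5, and Car5b, Zfand1 and Eya1 for Vtn. They were Tex26, Klk13 and Ism1 for Acta2, Cmtm4, Cdk6 and LTO1 for Abcc9, Efna1, Ik and Rpap3 for Tagln, and Hhipl1, LOC100040974 and Vtcn1 for Myh11. No gene of the vascular lists was among these 21. The measure was Pearson's coefficient, given as a description with no p. It was ranked over the tested genes after leaving out predicted genes (Gm with a number, Rik) and olfactory and vomeronasal receptor genes. MicroRNAs and small nucleolar and Cajal body RNAs were left out too. Control replicate 2 lay far from the other controls for Pdgfrb, Rgs5 and Myh11, so for them that array weighs heavily in the coefficient. No conclusion on shared expression with the vascular genes is drawn from it.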
